A study of Mus musculus with 2 samples.

Results

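The genes of iron storage, transport and export in this report are transferrin (Trf), the transferrin receptor (Tfrc), the divalent metal transporter (Slc11a2), the heavy and light chains of ferritin (Fth1 and Ftl1), ferroportin (Slc40a1) and the ferroxidases hephaestin (Heph) and ceruloplasmin (Cp). They were chosen by name, and each matched 1 of the 32285 genes counted, so that 8 of 8 were found. RNA of single cells was sequenced from the RPE, with the choroid and sclera attached, of male C57BL/6J mice 3 months of age with no altered gene. The control mice received 1 µl of PBS under the retina and the Dox mice 1 µl of doxorubicin, a DNA-damaging drug, at 100 ng/µl, and cells were collected 7 days later. Each condition is 1 library, made from 10 pooled eyes of 5 mice, without a replicate. By the study's account such an injection reaches only part of the RPE, so that the Dox library pools treated and untreated RPE.

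Cells take up iron mainly as iron bound to transferrin, which the transferrin receptor brings into endosomes, where the divalent metal transporter carries the freed iron to the cytosol. Iron that is not used is stored inside shells of ferritin, whose heavy chain oxidises the iron and whose light chain helps to hold it. Ferroportin is the only known exporter of iron from mammalian cells, and hephaestin or ceruloplasmin oxidises the exported iron so that it can bind transferrin again. The RPE lies between the choroidal blood and the photoreceptors, makes transferrin itself, and is known to express these genes. Loss of both ferroxidases in mice is known to load the RPE with iron.

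Several of these transcripts carry iron-responsive elements, hairpins that iron regulatory proteins bind when iron is low. A hairpin before the coding sequence blocks translation, and hairpins after it protect the transcript. Counts of RNA therefore do not read the first kind of control. The untranslated regions (UTRs) of the 8 genes were searched, on the transcript strand only, for a C, any 5 bases, the letters CAGTG and any 6 bases, in which the 5 bases before CAGTG had to pair with the last 5. The sites found are shown as places where a member may be controlled after transcription. Capitals mark the loop letters, and positions are on GRCm38 with transcripts of GENCODE vM21.
Fth1, 5′ UTR, chr19:9982732-9982760, plus strand: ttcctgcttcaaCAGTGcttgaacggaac
Ftl1, 5′ UTR, chr7:45459779-45459807, minus strand: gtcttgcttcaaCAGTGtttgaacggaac
Slc40a1, 5′ UTR, chr1:45925465-45925493, minus strand: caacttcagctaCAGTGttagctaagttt
Tfrc, 3′ UTR, chr16:32631219-32631247, plus strand: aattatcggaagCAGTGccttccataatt
Tfrc, 3′ UTR, chr16:32631598-32631626, plus strand: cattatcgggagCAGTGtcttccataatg
Tfrc, 3′ UTR, chr16:32631663-32631691, plus strand: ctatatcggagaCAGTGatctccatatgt
Tfrc, 3′ UTR, chr16:32631710-32631738, plus strand: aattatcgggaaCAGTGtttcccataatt
The shape was found in the 5′ UTR of 31 of 21901 coding genes (0.142%) and in the 3′ UTR of 129 (0.589%). These letters in this shape were not in the annotated UTRs of Trf, Slc11a2, Heph and Cp. The search allowed no unpaired base among the 5 pairs, so that it cannot show that these genes lack an iron-responsive element. A match is a description of the letters and was not tested for binding.

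The limits on cell quality kept 20180 of 20381 control cells and 15426 of 15649 Dox cells, with a median of 4495 and 4995 UMIs (unique molecular identifiers, which count RNA molecules) per cell, and 441 cell barcodes occurred in both libraries. RPE cells were all kept cells with at least 10 UMIs of Rpe65, the isomerase of the visual cycle, which gave 1526 control and 1630 Dox cells with 26313869 and 31201113 UMIs. Of these, 1294 and 1378 also lay in the cluster that carried the RPE markers. Next to the limit, 83 control and 116 Dox cells had 8 to 9 Rpe65 UMIs, and 66 and 81 had 10 to 11. RPE cells were split by Serpina3n, a protease inhibitor of the acute-phase response. At or above 1000 counts per 1000000 UMIs (CPM) lay 15 control and 208 Dox cells, called Serpina3n-high here, and below it 1511 and 1422. Between 800 and 1000 CPM were 6 control and 13 Dox cells, and between 1000 and 1250 CPM 2 and 15.

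The level of a gene in a group of cells is given as the UMIs of that group summed and scaled to CPM, with a 95% Poisson interval, and a difference as a ratio of 2 such levels. All intervals cover counting error only. A member was counted as past the fold when the ratio was at least 1.5 in either direction with at least 50 UMIs over both groups. No test was possible with 1 library each, and treatment, injection, animals and library cannot be told apart. In each comparison, the share of all genes past the same fold is given as the background. Levels are compared between groups of cells and never between genes, since a 5′ library reads different transcripts with unequal efficiency. In the RPE cells the 8 markers of the RPE list summed to 96826 CPM in control and 97877 CPM in Dox. Most of this was Ttr, with 69732.5 CPM in control and 70883.6 CPM in Dox. Rpe65, which set the group, is in the list too, and Best1 stood at only 0.532 and 0.673 CPM. The Dox RPE cells held less of the fibroblast and macrophage markers. They had 1063 against 1712 CPM for 14 fibroblast markers (Kera at 0 in both) and 182 against 380 CPM for 11 macrophage markers. The 9 melanocyte markers summed to 1907 CPM in Dox and 2913 CPM in control. Among them, Pmel stood at 63.7 CPM in Dox RPE cells and 298 CPM in control ones. The study describes Pmel as a marker of an RPE cluster and as lower in RPE cells after Dox. The melanocyte sum therefore cannot tell RNA of other cells from RNA of the RPE itself. The part of these differences in the ratios below was not tested.

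Transferrin was the carrier for which the RPE stood out. Trf (chr9:103204001-103230444, minus strand) reached 20168 CPM in control RPE cells (20113 to 20222, 530688 UMIs) and 22629 CPM in Dox RPE cells (22576 to 22682, 706041 UMIs), or 2.02% and 2.26% of all their UMIs. Every RPE cell of both libraries held at least 1 Trf UMI. Presence did not set the RPE apart, since the share was at least 98.4% in every other type compared (lowest in endothelial-like cells of Dox). The next cell type was the melanocyte-like one, with 4308 CPM in control and 13900 CPM in Dox. The remaining types lay far lower, between 1342 CPM in fibroblast-like and 1621 CPM in macrophage-like cells of the control library and between 2029 and 2611 CPM in the same types of the Dox library. Among those, macrophage-like against NK or T-like cells and smooth muscle-like against endothelial-like against fibroblast-like cells of control had overlapping intervals, as had endothelial-like against smooth muscle-like cells of Dox.

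In 5 of the 6 other types compared, the Trf level was past the 1.5-fold in Dox over control. The log2 ratio was 0.60 in fibroblast-like cells (0.58 to 0.61), 0.69 in macrophage-like cells (0.64 to 0.73), 0.79 in smooth muscle-like cells (0.74 to 0.84), 0.81 in endothelial-like cells (0.72 to 0.90) and 1.69 in melanocyte-like cells (1.67 to 1.71). In NK or T-like cells it was 0.48 (0.41 to 0.56). The same cells carried RNA of the RPE, since Rpe65, which none of these types is known to express, stood between 195 CPM (fibroblast-like) and 558 CPM (melanocyte-like) in control and between 270 CPM (fibroblast-like) and 1447 CPM (melanocyte-like) in Dox. For each 100 Rpe65 UMIs, the 6 other types held 598 to 787 Trf UMIs in control and 717 to 961 in Dox, against 406 and 465 in the RPE cells themselves. Within the RPE this quotient differed widely. It was 394 in Serpina3n-low and 1806 in Serpina3n-high cells of control, and 274 and 2939 in those of Dox, so that the other types lay between the 2 kinds of RPE cells. The rule for RPE cells bears on this quotient, since every cell with at least 10 Rpe65 UMIs was moved out of the other types. The quotient therefore cannot show how much Trf these types held beyond RNA of the RPE. In the Dox melanocyte-like cells, Serpina3n stood at 701 CPM, against 57.8 CPM in control. Of the Trf UMIs of melanocyte-like cells, 1 cell held 1089 of 23843 in control and 1 cell held 2526 of 39041 in Dox. What part of the Trf of the other types was RNA of the RPE, free or within cells, was not tested. The melanocyte-like cluster was led by Hbb-bs, a hemoglobin gene, beside the melanosome gene Pmel, and its cells had a median of only 1149 UMIs in control and 768 in Dox.

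**Figure D1:**
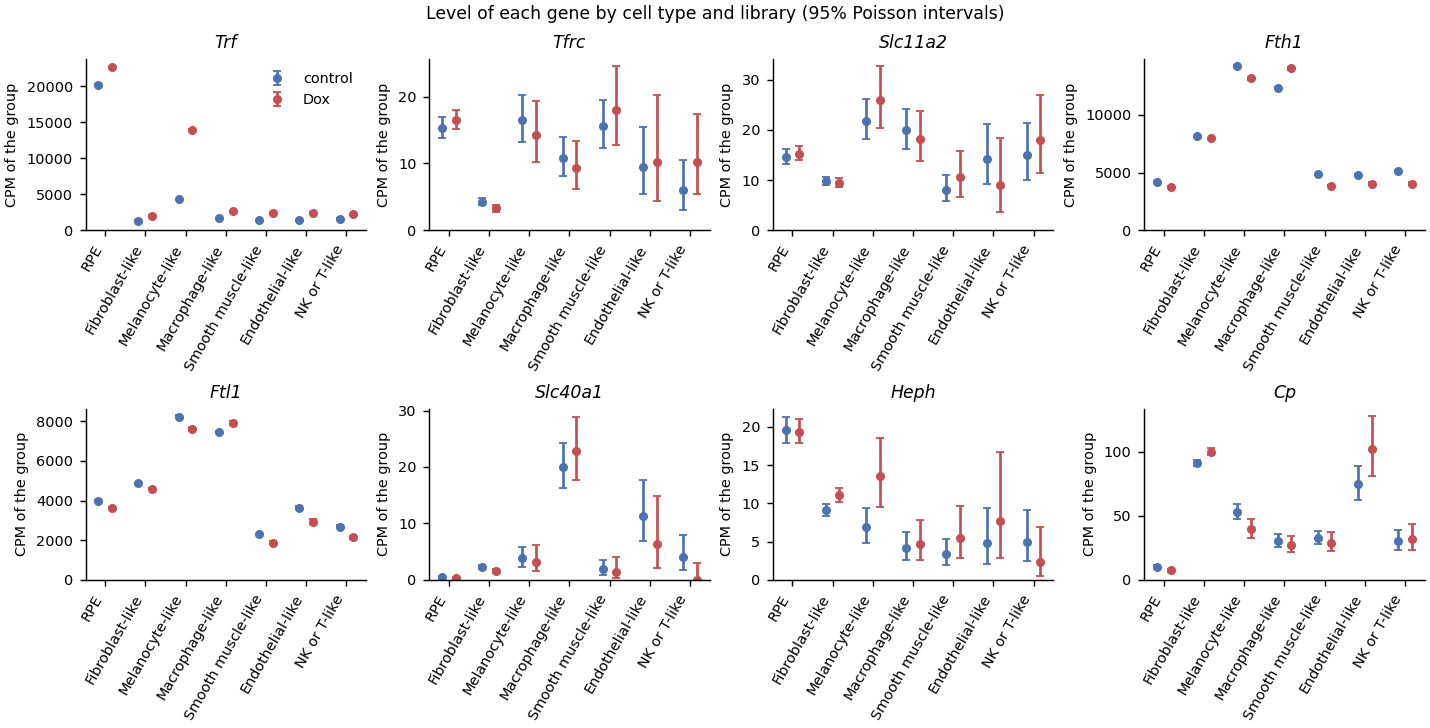
Level of each of the 8 genes in CPM (linear axes from 0) in RPE cells and 6 other cell types of the control and Dox libraries, with bars for 95% Poisson intervals. Trf and Heph were highest in RPE cells, while Fth1, Ftl1 and Slc40a1 were highest in melanocyte-like or macrophage-like cells and Cp in fibroblast-like or endothelial-like cells.

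Over all RPE cells, the level of Trf differed little between the conditions, with a ratio of Dox over control of 0.17 on the log2 scale (0.16 to 0.17). Split by Serpina3n, Trf was lower in Dox among the low cells and higher among the high cells. Serpina3n itself was 14.9-fold higher in Dox RPE cells, so that a fixed limit need not part the same kinds of cells in both libraries. The part of this sorting in the ratios of low and of high cells was not tested. In Serpina3n-low cells Trf was 19716 CPM in control but 15073 CPM in Dox, or -0.39 as a log2 ratio (-0.39 to -0.38). In Serpina3n-high cells it was 45946 CPM in the 15 control cells and 57426 CPM in the 208 Dox cells, a log2 ratio of 0.32 (0.30 to 0.34). Neither was past the 1.5-fold. Between the 2 kinds of RPE cells of the same library the difference was larger, with Trf 3.81-fold higher in Serpina3n-high cells of Dox (log2 1.93, 1.92 to 1.94) and 2.33-fold higher in those of control (log2 1.22, 1.2 to 1.24). The study already lists Trf beside Serpina3n as a marker of the same RPE cluster, in control and in Dox. That cluster came from clustering and not from a Serpina3n limit, so that it need not hold the same cells.

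The Serpina3n-high cells were 12.8% of the Dox RPE cells and held 17.8% of their UMIs but 45.3% of their Trf UMIs (45.2% to 45.4%). In control they were 0.983% of the cells and held 3.92% of the Trf UMIs (3.87% to 3.97%). From cell to cell, Trf in Serpina3n-low cells had a median of 11610 CPM in control and 10474 CPM in Dox, with 10th and 90th percentiles of 3609 and 30998 CPM in control and 4040 and 22332 CPM in Dox. In Serpina3n-high cells of Dox the median was 52685 CPM and the 10th percentile 25486 CPM, above the 90th percentile of the Serpina3n-low cells of that library. A level of 25000 CPM or more, a limit chosen after the levels had been seen, was reached by 187 of 208 Serpina3n-high Dox cells (89.9%) and 103 of 1422 Serpina3n-low Dox cells (7.24%). In control it was reached by 11 of 15 Serpina3n-high cells (73.3%, 44.9% to 92.2%) and by 226 of 1511 Serpina3n-low cells (15.0%, 13.2% to 16.9%). Most control cells with this much Trf were below the Serpina3n limit, which the group sizes of 15 and 1511 cells fixed in advance.

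**Figure D2:**
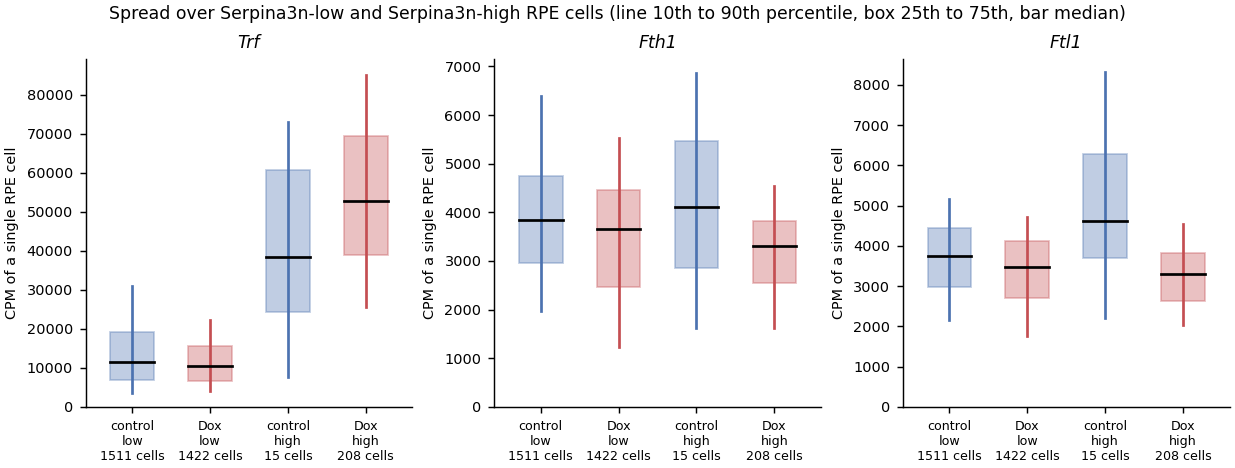
CPM of Trf, Fth1 and Ftl1 in single RPE cells, split into Serpina3n-low and Serpina3n-high cells of the control and Dox libraries, with the median (bar), the 25th to 75th percentile (box) and the 10th to 90th percentile (line). The Trf boxes of the Serpina3n-high cells lie above those of the Serpina3n-low cells, while the boxes of both ferritin chains overlap.

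Trf was mostly higher in bins of cells with more Serpina3n, and the bin at which it stepped up was not the same in the 2 libraries. Control RPE cells with no Serpina3n UMI (1294 cells) had 17560 CPM of Trf, those below 100 CPM of Serpina3n (105 cells) 22429, those from 100 to below 300 CPM (76 cells) 37335, and those from 300 to below 1000 CPM (36 cells) 41267. The highest bins of control held only 9 and 6 cells, with 47793 and 42747 CPM. In Dox the first 3 bins, of 780, 327 and 212 cells, lay close together at 12838, 14766 and 15448 CPM. The Dox bin from 300 to below 1000 CPM (103 cells) had 38060 CPM, and the highest bins, of 64 and 144 cells, had 50288 and 59834 CPM. Rpe65 went the other way, from 5210 CPM in control cells and 5819 CPM in Dox cells without Serpina3n to 2292 CPM in the control bin of 9 cells and 1749 CPM in the highest Dox bin. Depth differed between the bins too, with a median of 5999 UMIs per cell in the Dox bin from 300 to below 1000 CPM against 28992 in the highest one. In shallow cells the edges of a bin stand for few Serpina3n UMIs, and the Dox bin from 100 to below 300 CPM had a median of 8610 UMIs. Serpina3n outside the RPE differed too, with 61.2 CPM in fibroblast-like cells of control and 134 CPM in those of Dox. The part of depth and of free RNA in the order of the bins and in the place of the step was not tested.

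**Figure D3:**
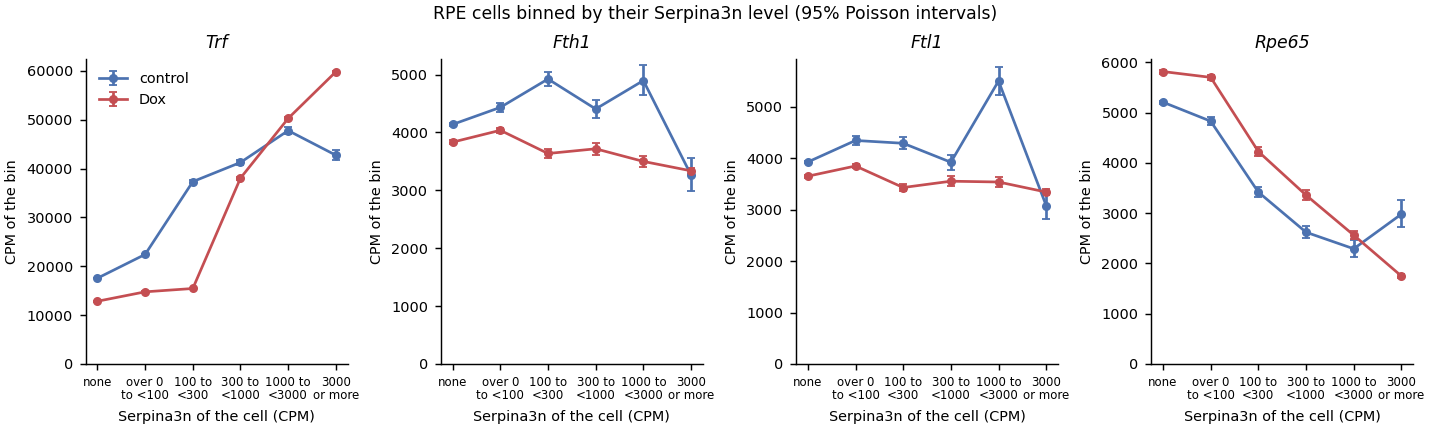
CPM of Trf, Fth1, Ftl1 and Rpe65 (linear axes from 0) in RPE cells binned by their own Serpina3n level, for the control and Dox libraries, with 95% Poisson intervals. Trf was higher and Rpe65 lower toward the right, except at the last control point, where both turned back, while Fth1 and Ftl1 of the Dox library stayed between 3337 and 4038 CPM and between 3343 and 3850 CPM. In control, Fth1 ran from 3265 to 4924 CPM and Ftl1 from 3078 to 5503 CPM. The 2 rightmost control points rest on 9 and 6 cells.

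On the side of uptake, the levels were low and differed little between the conditions. Tfrc (chr16:32608920-32632794, plus strand), the receptor, stood at 15.3 CPM in control RPE cells (13.9 to 16.9, 403 UMIs) and 16.5 CPM in Dox RPE cells (15.1 to 18.0, 514 UMIs), a log2 ratio of 0.11 (-0.09 to 0.30). In Serpina3n-high Dox cells it was 11.1 CPM (62 UMIs) against 17.6 CPM in Serpina3n-low ones (452 UMIs), a log2 ratio of -0.66 (-1.07 to -0.28). This was no longer past the 1.5-fold with all cells from 3 Rpe65 UMIs on (-0.18) or with the mean of the cells' own CPM (-0.10). Nor was it once the ratios were centred on the all-gene median (-0.48). A limit of 3 Rpe65 UMIs also takes in cells of other types, since single fibroblast-like cells held up to 9 in both libraries. The 15 Serpina3n-high control cells held no Tfrc UMI, and with the floor of 3 counts, 6.63 CPM in that group, the level there was 2.35-fold below that of Serpina3n-low control cells, with a counting interval of the log2 ratio that reached up to -0.93. Against the same floor it was 1.68-fold higher in the Serpina3n-high cells of Dox than in those of control, but the counting interval of that log2 ratio reached down to 0.41, short of the 1.5-fold. A UMI of Tfrc was seen in 21.6% of control and 25.7% of Dox RPE cells, and, with each cell thinned to 2000 UMIs, in 2.95% and 3.71%. In fibroblast-like cells, whose Tfrc level was the lowest of the types compared (4.28 CPM in control and 3.25 CPM in Dox), the thinned shares were 0.952% and 0.704%. Melanocyte-like, smooth muscle-like and endothelial-like cells had Tfrc levels with intervals that overlapped those of the RPE in both libraries.

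Slc11a2 (chr15:100387898-100425072, minus strand), the transporter that moves iron out of endosomes, stood at 14.6 CPM in control (13.2 to 16.1, 384 UMIs) and 15.3 CPM in Dox RPE cells (13.9 to 16.7, 477 UMIs). Dox over control gave a log2 ratio of 0.07 (-0.13 to 0.26), and that of Serpina3n-high over Serpina3n-low Dox cells was 0.33 (-0.01 to 0.64), with 18.3 CPM against 14.6 CPM. The RPE was 4th among the 7 types compared in both libraries, below melanocyte-like cells (21.9 CPM in control and 26.0 CPM in Dox).

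Both ferritin chains were abundant in every type, and the RPE held comparatively little of the heavy one. Fth1 (chr19:9980598-9985098, plus strand) stood at 4217 CPM in control RPE cells (4192 to 4242) and 3786 CPM in Dox RPE cells (3765 to 3808), the lowest of the 7 types in both libraries, although the interval of the Dox RPE overlapped that of Dox smooth muscle-like cells (3793 to 3959). The highest levels were those of melanocyte-like cells in control (14219 CPM) and macrophage-like cells in Dox (14059 CPM). In the latter, 1 cell held 2905 of the 42483 Fth1 UMIs, and the Dox melanocyte-like cells were next with 13183 CPM. Ftl1 (chr7:45457944-45459884, minus strand) stood at 3998 CPM in control RPE cells (3974 to 4022) and 3637 CPM in Dox RPE cells (3616 to 3658), 4th of the 7 types in both libraries. Reads of Ftl1 can be split with its near-identical copy Ftl1-ps1 (chr13:74399694-74407346), which had 20.7 CPM in the RPE cells of control and 20.3 CPM in those of Dox, so that Ftl1 is uncertain by what was lost to shared reads.

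The balance of the chains set the RPE apart. RPE cells held 1.05 Fth1 UMIs for each Ftl1 UMI in control (1.05 to 1.06) and 1.04 in Dox (1.03 to 1.05). In the 6 other types the same quotient ran from 1.31 in endothelial-like to 2.11 in smooth muscle-like cells of control and from 1.37 to 2.07 in the same types of Dox. Fibroblast-like, melanocyte-like and macrophage-like cells lay between, at 1.65 to 1.78. Adding Ftl1-ps1 to Ftl1 left the RPE values at 1.05 and 1.04, but this cannot restore reads that were lost because both genes share them. The intervals of the RPE did not overlap those of any other type compared in the same library.

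**Figure D4:**
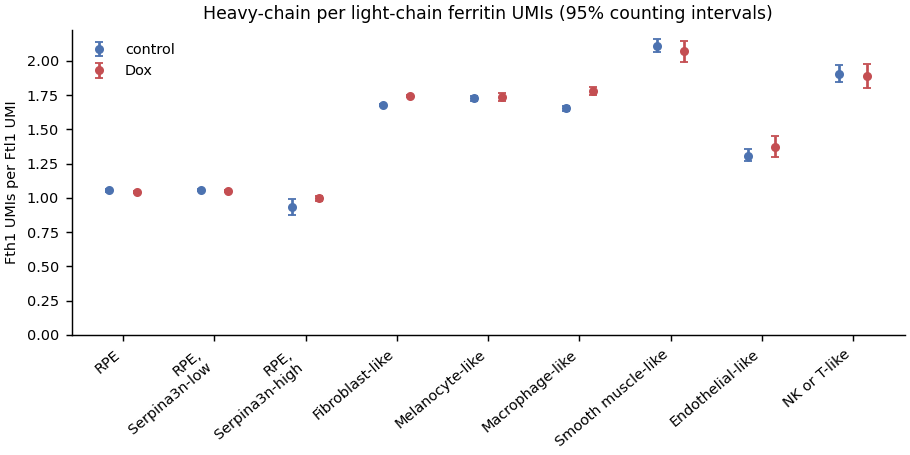
Fth1 UMIs for each Ftl1 UMI (linear axis from 0) in RPE cells, in the Serpina3n-low and Serpina3n-high RPE cells, and in 6 other cell types of the control and Dox libraries, with 95% counting intervals. All RPE groups lie between 0.932 and 1.06, below the endothelial-like cells at 1.31 and 1.37 and the other types above those.

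Neither chain was past the 1.5-fold in any comparison of RPE cells. Dox over control gave a log2 ratio of -0.16 for Fth1 (-0.17 to -0.14) and -0.14 for Ftl1 (-0.15 to -0.12), and in Serpina3n-high over Serpina3n-low Dox cells it was -0.20 (-0.22 to -0.18) and -0.12 (-0.14 to -0.10). The median of all genes in that comparison was -0.18, and the ratios of Fth1 and Ftl1 were above those of 48.7% and 56.3% of all genes, so that both chains moved like a typical gene. Centred on that median, the log2 ratios were -0.01 and 0.06. Serpina3n-high over Serpina3n-low cells of control gave 0.03 for Fth1 (-0.04 to 0.09) and 0.21 for Ftl1 (0.15 to 0.27). Dox over control in Serpina3n-high cells gave -0.35 (-0.42 to -0.28) and -0.44 (-0.51 to -0.38). Both of these comparisons rest on the 15 Serpina3n-high control cells. From cell to cell the ferritin levels spread less than Trf, with 25th and 75th percentiles of 2953 and 4752 CPM for Fth1 and 2993 and 4463 CPM for Ftl1 in control RPE cells, against 7024 and 19442 CPM for Trf.

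For export, ferroportin was nearly at the limit of detection in the RPE. Slc40a1 (chr1:45908068-45926523, minus strand) gave 11 UMIs among the 26313869 of the control RPE cells (0.418 CPM, 0.209 to 0.748) and 8 among the 31201113 of the Dox RPE cells (0.256 CPM, 0.111 to 0.505), too few for a ratio to be counted. A UMI was seen in 0.721% of control and 0.491% of Dox RPE cells, in spite of a median depth of 16014 and 18116 UMIs. In macrophage-like cells, at a median of 4431 and 3395 UMIs, it was seen in 7.43% and 7.22%, with levels of 19.9 CPM (16.2 to 24.2) and 22.8 CPM (17.8 to 28.9). Endothelial-like cells followed with 11.3 CPM in control (19 UMIs) and 6.40 CPM in Dox (5 UMIs). The NK or T-like cells of Dox held 0 UMIs, with an interval that reached up to 2.89 CPM. The low count in RPE cells holds for this 5′ assay and does not measure the protein.

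The 2 ferroxidases had opposite places among the cell types. Heph (chrX:96455359-96574485, plus strand), the membrane-bound ferroxidase, was highest in the RPE, with 19.6 CPM in control (17.9 to 21.3, 515 UMIs) and 19.4 CPM in Dox (17.8 to 21.0, 604 UMIs). Fibroblast-like cells were next in control (9.15 CPM, 8.40 to 9.94) and melanocyte-like cells in Dox (13.5 CPM, 9.57 to 18.6, 38 UMIs), where the intervals overlapped. Cp (chr3:19957054-20009145, plus strand), the ferroxidase that is also secreted into plasma, was lowest in the RPE, with 10.2 CPM in control (9.0 to 11.5, 268 UMIs) and 7.34 CPM in Dox (6.42 to 8.35, 229 UMIs). Fibroblast-like cells held 91.1 and 100.0 CPM and endothelial-like cells 74.4 and 102 CPM. Among the 8 members, Trf and Heph were thus the 2 with their highest level in RPE cells in both libraries, where 13.7% of all 15756 genes with enough UMIs had it.

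Heph did not differ between the conditions by more than its interval, with a log2 ratio of -0.02 over all RPE cells (-0.19 to 0.16). In Serpina3n-high Dox cells it stood at 12.9 CPM (72 UMIs) against 20.8 CPM in Serpina3n-low ones (532 UMIs), a log2 ratio of -0.68 (-1.06 to -0.32). In a random thinning of each cell to 2000 UMIs the log2 ratio was 0.17. Another such thinning kept the direction. There, 3 of 205 Serpina3n-high Dox cells (1.46%) and 57 of 1384 Serpina3n-low ones (4.12%) held a Heph UMI. With so few UMIs left, thinning cannot settle the direction. The ratio was short of the 1.5-fold with all cells from 3 Rpe65 UMIs on (-0.30) and after centring (-0.50). Cp was lower in Dox RPE cells than in control ones by a log2 ratio of -0.47 (-0.73 to -0.21), short of the 1.5-fold, while fibroblast markers were lower there too, as given above. It was past the 1.5-fold with at least 20 Rpe65 UMIs, with cells also in the RPE-like cluster and with thinned cells. The lowest log2 ratio under any alternative was -0.83. The direction turned with all cells from 3 Rpe65 UMIs on, to 0.24 over all of them and to 0.39 in Serpina3n-low ones. That limit also takes in fibroblast-like cells, whose Cp level was 91.1 CPM in control and 100 CPM in Dox. Their part in this turn was not tested. In Serpina3n-high Dox cells Cp stood at 4.31 CPM (24 UMIs) against 8.0 CPM (205 UMIs), a log2 ratio of -0.89 (-1.57 to -0.28). In the same groups the 14 fibroblast markers summed to 459 and 1193 CPM. Without the cells that scored highest as doublets, the log2 ratio of Cp was 0.07, and with cells also in the RPE-like cluster it was -0.0011.

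Counted over the members, 0 of the 7 with at least 50 UMIs were past the 1.5-fold in Dox over control for all RPE cells, where 6.58% of all genes were, and the median log2 ratio was -0.02 for the members and -0.01 for all genes. In Serpina3n-low cells it was 0 of 7, against 4.91%, with medians of -0.11 and 0.01. In Serpina3n-high cells 1 of 6 was past it (Tfrc, higher) against 27.3% of all genes, with only 15 cells in the control group. Between Serpina3n-high and Serpina3n-low cells of Dox, 1 of 7 was higher (Trf) and 3 lower (Tfrc, Heph and Cp), against 4.72% higher and 20.3% lower among all genes. The median was -0.20 for the members and -0.18 for all genes, and the median depth was 28244 UMIs per cell in the high and 16608 in the low cells. The ratio of Trf was above that of 99.4% of all genes tested, while those of Tfrc, Heph and Cp were above those of 16.8%, 16.1% and 10.6%. The same comparison in control gave 1 of 7 higher (Trf) and 2 lower (Tfrc and Cp, which rested on 0 and 1 UMI in the high cells), against 10.7% and 23.3%.

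In the other types, 1 of 8 members was past the fold in fibroblast-like cells (Trf, against 4.64% of all genes), 2 of 7 in melanocyte-like cells (Trf and Heph, against 15.9%), 1 of 7 in macrophage-like cells (Trf, against 7.91%), 1 of 6 in smooth muscle-like cells (Trf, against 7.44%), 1 of 4 in endothelial-like cells (Trf, against 10.2%) and 0 of 5 in NK or T-like cells (against 9.72%). Each of these was higher in Dox. In the clusters that carried only the name of a leading gene, 1 of 7 was past it in the Cxcl10-led one (Tfrc, lower, against 4.37%) and 2 of 6 in the Snhg7os-led one (Trf, higher, and Tfrc, lower, against 13.1%). The Heph level of melanocyte-like cells rested on 38 UMIs in each library, with a log2 ratio of 0.98 (0.29 to 1.67), beside Rpe65 at a log2 ratio of 1.37 in the same cells.

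**Figure D5:**
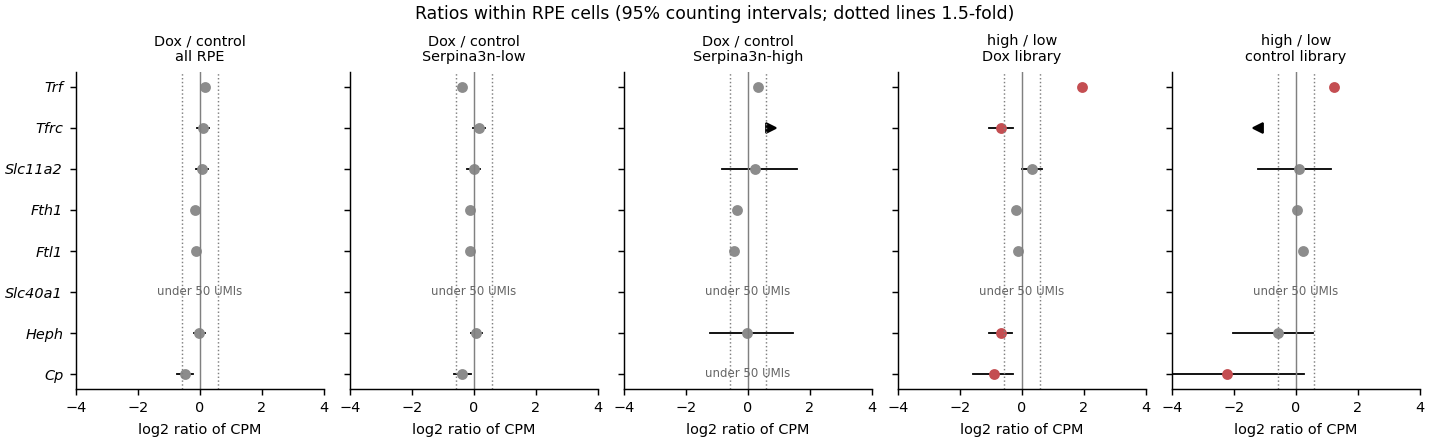
log2 ratio of CPM for the 8 genes in 5 comparisons of RPE cells, with 95% counting intervals, red points for ratios past the 1.5-fold (dotted lines) and triangles for bounds where a group held no UMI. The interval of Cp in the rightmost panel runs beyond the axis, to -7.53. Trf lies to the right in both comparisons of Serpina3n-high with Serpina3n-low cells, while Fth1 and Ftl1 stay between the dotted lines in every panel.

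Of 40 other genes of iron handling, 27 had at least 50 UMIs over all RPE cells, and 1 of these was past the 1.5-fold in Dox over control, against 6.58% of all genes. That gene was Lcn2, lipocalin 2, which binds bacterial iron carriers and is an acute-phase protein. It gave 7 UMIs in control RPE cells (0.266 CPM) and 170 in Dox RPE cells (5.45 CPM), a log2 ratio of 4.36 (3.28 to 5.69). In Dox, 160 of the 170 UMIs lay in Serpina3n-high cells, in 22 of the 208, and a single cell held 33. Outside the RPE, macrophage-like cells held 4.49 CPM of Lcn2 in control and 7.61 CPM in Dox, and endothelial-like cells 2.38 CPM and 14.1 CPM, the latter from 11 UMIs of which 1 cell held 10. In Serpina3n-low cells 0 of 25 genes with enough UMIs were past the fold, against 4.91%. In Serpina3n-high cells 3 of 21 were higher and 4 lower, against 27.3% of all genes in either direction, with only 15 control cells. Hmox1, an enzyme that degrades heme, was among the lower ones (65.8 against 267 CPM, log2 -2.02, -2.32 to -1.71). Of its 121 UMIs in the control group, however, 91 came from 1 cell.

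Between Serpina3n-high and Serpina3n-low cells of Dox, 4 of 25 were higher and 6 lower, against 4.72% and 20.3% of all genes, so that the count of lower ones was near the background. Higher were Lcn2 (log2 6.20), the heme-degrading enzyme Hmox1 (65.8 against 27.1 CPM, log2 1.28, 1.09 to 1.46), Hfe, a partner of the transferrin receptor (32.5 against 16.6 CPM, log2 0.97, 0.71 to 1.23), and Slc39a14, a transporter of free iron (18.0 against 10.6 CPM, log2 0.75, 0.41 to 1.09). Lower were Bmp6, a ligand that drives hepcidin in the liver (17.1 against 46.9 CPM, log2 -1.46, -1.77 to -1.16), the metalloreductase Steap2 (log2 -1.09), the ferritin receptor Scara5 (log2 -1.02), the cytosolic aconitase and iron regulatory protein Aco1 (36.3 against 62.6 CPM, log2 -0.79, -1.01 to -0.58) and the mitochondrial iron carriers Slc25a37 (log2 -0.75) and Slc25a28 (log2 -0.67). In control, where the high group held 15 cells, 4 of 25 were higher and 4 lower, against 10.7% and 23.3% of all genes. Hmox1 reached 267 CPM there against 35.0 CPM (log2 2.93, 2.65 to 3.21), but 91 of its 121 UMIs came from 1 cell. Hfe was at log2 1.38 (0.68 to 2.01) and Aco1 at -0.70 (-1.48 to -0.02), while the intervals of Slc39a14 (log2 0.72), Blvra (0.61), a biliverdin reductase, Scara5 (-0.76), Slc25a28 (-1.08) and Ireb2 (-0.98), the other iron regulatory protein, included 0.

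The 5 of the 40 genes with the most UMIs in RPE cells, a rule for naming and not a comparison between genes, were the iron chaperones Pcbp2 (648 CPM in control, 625 CPM in Dox) and Pcbp1 (361 and 356 CPM), the iron-sulfur scaffold Iscu (296 and 297 CPM), Flvcr2 (132 and 151 CPM), a heme and choline transporter, and the constitutive heme oxygenase Hmox2 (68.7 and 63.4 CPM). None of the 5 was past the 1.5-fold in Dox over control over all RPE cells. Of the 40 genes, 34 had enough UMIs over the cell types compared. Their highest level was in the RPE in both libraries for 5 of the 34, against 13.7% of all genes, so that the count was near the background. Flvcr2, Aco1, Bmp6 and Slc46a1, a folate and heme carrier, were among these.

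Over 14 groups (7 cell types in 2 libraries), the genes with the pattern most like that of Trf among the 5651 genes that reached 50 CPM in a group were Ermn, Col9a3 and Cspg5 (Pearson's r of log2 CPM of 0.994, 0.994 and 0.992). Those most like Heph were Sulf1, Sostdc1 and Sfrp1 (0.969, 0.935 and 0.934), and those most like Cp were Plscr4, Plscr3 and Cntln (0.975, 0.971 and 0.967). Fth1 went with Rab32, Creg1 and Eps15 (0.948, 0.926 and 0.917) and Ftl1 with Hexa, Abca1 and Ctsb (0.937, 0.931 and 0.921). For the members of low count, the nearest genes were Nampt, Nfe2l2 and Gatm for Slc40a1 (0.946, 0.930 and 0.917), Usf2, Ubl3 and Fam49a for Slc11a2 (0.894, 0.879 and 0.855) and Vdac2, Daam1 and Abr for Tfrc (0.883, 0.872 and 0.858). These values are descriptions, since the groups of a library share its depth and its free RNA and the types are only 7.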

How the data were processed

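The authors deposited raw counts of UMIs per gene and cell, made from 5′ libraries by Cell Ranger (the header names 4.0.0) on mm10. The annotation version is not given in the sources used here. A cell was kept when it had more than 500 UMIs, more than 200 but fewer than 6000 genes, a quotient of log10 genes and log10 UMIs above 0.8, and less than 0.2 of its UMIs from mitochondrial genes. Clustering used Seurat 5.3.0 in R 4.3.3 (SCTransform, integration on 3000 features, 40 components, resolution 0.1). A cluster took the name of the marker list with the most markers at 10 CPM or more and at least 4-fold over all other cells, at least 3 of them, and otherwise that of its leading gene. This naming rule was chosen with the clusters in view. Cells with at least 10 Rpe65 UMIs were moved to the RPE, and cells of the RPE-like cluster below that limit (49 in control and 52 in Dox) were left out of the cell types. Clusters led by Cxcl10 and Snhg7os and the Schwann-like cells (48 and 32) were left out of the order of cell types, which needed 50 cells in each library. The macrophage-like cluster carried 11 of 11 markers, but immunoglobulin genes led it.

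UMIs were summed per group with Python 3.11.15, numpy 2.4.6 and scipy 1.17.1. Shares have Clopper-Pearson intervals, CPM Poisson intervals and ratios conditional binomial intervals, all exact, at 95% and of counting error only, since UMIs of 1 library say nothing on animals. A group with 0 UMIs was set to 3 counts in a ratio. The steps were checked on simulated counts with known folds. Of the genes simulated without a change, 29.7% were past the 1.5-fold in Serpina3n-high over Serpina3n-low cells of control. The share was 19.1% in Dox over control of Serpina3n-high cells and between 1.11% and 3.34% in the other comparisons of RPE cells. In the simulation, unlike in the results, a group with 0 UMIs always counted as past the fold. The simulated sums were Poisson counts without variation between cells, animals or libraries. These shares therefore cover counting error only and do not show how often an unchanged gene passes the fold in real cells.

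The members and gene lists were chosen with earlier results of these data known. The text names the 8 members, Rpe65 and Serpina3n, at most 12 other iron genes with the largest ratios past 1.5-fold between conditions or between Serpina3n-high and Serpina3n-low cells, the 5 with the highest RPE level, and the 3 genes most like each member. Slc46a1 was named after its values had been seen, and 1 gene of the list is not reported here. Doublets were removed only by the limit on genes. Scrublet (scanpy 1.11.5, expecting 0.8% for every 1000 cells) called 1941 cells of control and 0 of Dox, and thus failed in Dox.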

Additional observations from a re-analysis of the deposited data

Results flagged for a closer look

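Tfrc was past the 1.5-fold in opposite directions in different groups of cells under Dox over control. In Serpina3n-high RPE cells it was higher, by a log2 ratio of 0.75 against the floor of 3 counts, with 62 UMIs in 208 Dox cells against 0 UMIs in 15 control cells and a counting interval that reached down to 0.41. In the cluster led by Cxcl10 it was lower, with a log2 ratio of -1.18 (-2.10 to -0.32, 17 against 38 UMIs), and in the cluster led by Snhg7os it was lower too, with a log2 ratio of -0.60 (-1.41 to 0.16, 20 against 56 UMIs). The difference between these groups was not tested, and the counts are small.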

How the results depend on the processing

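The alternatives were other limits on mitochondrial share, genes, doublet scores, Rpe65 UMIs and Serpina3n, cells also in the RPE-like cluster, CPM without mitochondrial genes, means of the cells' own CPM, thinned cells, centring on the median of all genes, and other limits on UMIs and fold. Trf and Heph remained the 2 members highest in RPE cells under all 5 alternatives run for that result. For Trf, the log2 ratio of Serpina3n-high over Serpina3n-low cells stayed between 1.80 and 2.38 in Dox and between 1.18 and 1.57 in control, and Dox over control stayed between 0.14 and 0.31 over all RPE cells, between -0.44 and -0.24 in Serpina3n-low cells and between 0.23 and 0.40 in Serpina3n-high cells. The larger moves in the counts of members past the fold follow, and the list is not complete. The cause was not tested for any of them, except that other limits on UMIs and fold change the count by their own construction.

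For Dox over control in all RPE cells, the count of 0 became 1 with at least 3 Rpe65 UMIs (Slc40a1), and 1 with at least 20 Rpe65 UMIs, with cells also in the RPE-like cluster, with cells thinned to 2000 UMIs and with a fold of 1.2 (Cp in each). In Serpina3n-low cells the count of 0 became 1 with at least 3 Rpe65 UMIs (Slc40a1), 1 with cells also in the RPE-like cluster (Cp) and 2 with a fold of 1.2 (Trf and Cp). In Serpina3n-high cells the count of 1 became 0 without the cells of the highest Scrublet scores (11 control cells left), with at least 20 Rpe65 UMIs, with thinned cells, with at least 100 UMIs, with a fold of 2 and with the Serpina3n split at 2000 CPM (8 control cells left). It became 2 with the mean of the cells' own CPM and with at least 20 UMIs, and 4 with a fold of 1.2. For Serpina3n-high over Serpina3n-low cells of Dox, the count of 4 became 1 with a fold of 2 (Trf). It became 2 with at least 3 Rpe65 UMIs and with centring on the median of all genes (Trf and Cp in both). Cp also fell short of the fold without the highest Scrublet scores and with cells also in the RPE-like cluster. Tfrc did so with the mean of the cells' own CPM (log2 ratio -0.10), and Heph with thinned cells. The log2 ratio of Slc11a2 in this comparison ran from 0.18 to 0.62, past the fold at its upper end. In control, the count of 3 became 1 with thinned cells (Trf). Of the ratios past the fold, those that turned in direction were Cp in Serpina3n-high over Serpina3n-low cells of Dox without the highest Scrublet scores (log2 ratio 0.0745) and Heph in the same comparison with thinned cells (log2 ratio 0.17). The turn of Heph rests on a random draw that left few UMIs, and another draw kept the direction, as given above. Ratios short of the fold turned too, among them, with at least 3 Rpe65 UMIs, Cp in Dox over control (0.24 over all RPE cells and 0.39 in Serpina3n-low cells) and Tfrc in the same groups (-0.09 and -0.08). With the split at 2000 CPM, Dox over control in Serpina3n-high cells turned for Fth1 (0.12) and Ftl1 (0.07), and with centring, Ftl1 turned in Serpina3n-high over Serpina3n-low cells of Dox (0.06).

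No paired analysis was possible because each condition has 1 library and the labels give no replicate numbers. No replicate was left out for the same reason. The depth limits Slc40a1 in every RPE group and Tfrc, Slc11a2, Heph and Cp in the 15 Serpina3n-high control cells, where 3 counts are 6.63 CPM.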
